A study of Rattus norvegicus with 6 samples.

Results

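The circular RNAs described here come from genes of cell adhesion and the actin cytoskeleton, in dental follicle cells of the rat. A circular RNA (circRNA) is made when a downstream splice site of a gene, its host, is joined back to an upstream one, and it is recognised by reads across that back-splice junction. A circRNA was included where its host name began with Itga, Itgb, Cdh, Pcdh, Ctnn, Myo, Diaph, Daam, Fmn, Fermt, Tln, Actn, Parva, Pard3, Magi, Fhod, Ppp1r12, Afap, Fat or Fn1 and ended in a digit, in a digit and a letter, or in l1, or was Vcl, Lpp, Pxn, Utrn, Dmd or Lmo7. This gave 78 of the 4143 circRNAs analysed, from 37 host genes on 17 chromosomes. They were divided by host into 19 circRNAs of 12 cell-cell junction and polarity genes, 24 of 9 cell-matrix adhesion genes and 35 of 16 actin and myosin genes. Of the 26 name patterns, 21 had a circRNA. The patterns Itga, Daam and Parva and the names Vcl and Pxn had none of the required form.

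Dental follicle cells belong to the loose connective tissue that encloses a tooth germ. In the induction group (3 samples) they were kept for 28 days in an osteogenic medium with 5% serum and 1% of an additive, which the labels give as β-glycerophosphate at 1.000 mol/L, ascorbic acid at 0.028 mmol/L and dexamethasone, a glucocorticoid, at 0.010 mmol/L. In the control group (3 samples) they were kept equally long with 5% serum and without the additive. Both groups came from tooth germs of the mandibular molars of Sprague-Dawley rats 5 to 7 days old and were treated at passage 3 to 4. The number of rats is given as 3 in one label and as 4 in another. The deposited counts hold 1 column per group, so there are no replicates and no p-value across rats is possible. Every interval below is an exact 95% interval of the ratio of induction to control that covers counting error only.

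The listed counts summed to 164746 in induction and 137740 in control. Circles of the dental follicle and mesenchyme markers Col1a1, Col3a1, Runx2, Cdh11 and Vim were counted (5 of 11 markers on the list), none of 7 epithelial or 4 nerve and glia markers had a circRNA, and 1 each of the endothelial, leukocyte and muscle lists had (Flt1, Dock8 and Dmd). Summed marker counts were 50 in induction and 48 in control for Flt1, 19 and 29 for Dock8, and 15 and 10 for Dmd. Their part in the results was not tested.

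Cells attach to the matrix through integrins, receptors whose tails bind talin and kindlin, which connect them to actin. They attach to each other through cadherins, whose tails bind the catenins β-catenin and α-catenin, and α-catenin in turn binds actin. Formins such as the Diaph and Fmnl proteins elongate actin filaments, myosins pull on them or carry cargo along them, and the myosin phosphatase lowers myosin activity. In cells of bone and its precursors, adhesion and actin tension are known to act on osteogenic differentiation. The levels below are of circular RNA, and nothing here measures the linear mRNA or the protein of a host. A lower level in bulk RNA can come from fewer cells that make the circRNA or from less of it per cell, which cannot be told apart.

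The 78 circRNAs were of low abundance. Their median count was 7 in induction and 7 in control, against 9 in each column over all 4143, and the highest were 114 in induction and 139 in control, both of the same Cdh11 circRNA. In TPM, the count relative to the column total without correction for length, this circRNA had 514.4 in induction and 683.8 in control, and the next, of Itgb5, had 500.9 in induction and 265.6 in control. In all they held 1101 counts in induction (exact Poisson interval 1037 to 1168) and 1193 in control (1126 to 1263). This was 0.668% of the listed counts in induction (exact binomial interval 0.630 to 0.709) and 0.866% in control (0.818 to 0.916). Of the 78, 46 had under 20 counts over both columns.

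Below, 2-fold higher or lower means a ratio of 2 or more, or of its inverse, with an interval that excluded equal levels. By this rule 4 of the 78 were higher in induction, 11 were lower and 63 were neither, 19.2% called. Over all 4143 circRNAs the same rule called 18.5%, so the number called among these genes is near the background. The background was 9.22% higher and 9.29% lower, while the members had 5.13% higher and 14.1% lower. The median log2 ratio was −0.12 in the members and −0.05 over all circRNAs. Among the 32 members with at least 20 counts, 2 were higher and 9 were lower, 34.4% called, where 30.2% of all such circRNAs were called. Where each column was taken to vary by 40% (coefficient of variation) beyond counting error, 6 of the 15 calls were left, 1 higher and 5 lower. They were the calls of Itgbl1, Fat1, Tln2, Afap1 and Myo1f and, of Diaph3, the called circRNA with more counts. The share of all circRNAs called on that assumption is not given here, so these 6 have no background beside them. An FDR under 0.05 was given to 15 of the 78 in the authors' deposited table, which uses the same counts and has 16.9% of all circRNAs under that FDR. Of those 15, 13 were also called here. Called here without such an FDR were the shortest circRNA of Itgb5 and that of Myo1c.

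**Figure D1:**
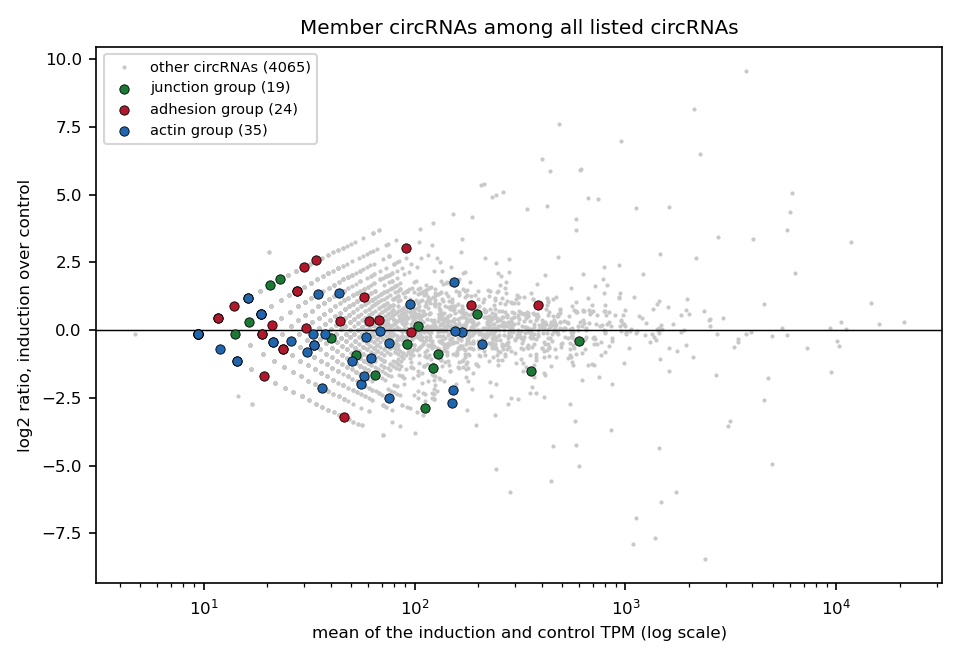
The log2 ratio of induction over control (vertical axis) against the mean TPM of the 2 columns (horizontal log axis) for each circRNA, with the 4065 other circRNAs in grey and the junction (19), adhesion (24) and actin (35) circRNAs in colour. The coloured points lie among the grey ones at low to middle levels, with more of the adhesion points above 0 and more of the actin points below 0.

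Summed over the groups, circRNAs of cell-matrix adhesion hosts were higher in induction and those of junction and actin hosts were lower, each by less than 2-fold. The adhesion group held 371 counts in induction (Poisson interval 334 to 411) and 220 in control (192 to 251), a ratio of 1.55 (1.31 to 1.84). The junction group held 353 counts in induction (317 to 392) and 495 in control (452 to 541), 1.53-fold lower in induction (1.33 to 1.76). The actin group held 377 counts in induction (340 to 417) and 478 in control (436 to 523), 1.38-fold lower (1.21 to 1.59). In the adhesion group 16 of 24 circRNAs had a ratio above 1, against 7 of 19 in the junction group and 7 of 35 in the actin group. Over all circRNAs this was so for 2014 of 4143. The ratio of the adhesion group was 2.36 times that of the junction group (1.90 to 2.95) and 2.14 times that of the actin group (1.72 to 2.67), whereas the actin and junction groups differed by a factor of 1.11 (0.908 to 1.35), within counting error. The summed counts of the other 4065 circRNAs had a ratio of 1.10.

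The differences of the adhesion and actin groups were not seen beyond counting error without their hosts of at least 100 counts. Without Itgb5 and Itgbl1, the adhesion hosts with at least 100 counts, the other 7 adhesion hosts had 109 counts in induction and 97 in control, a ratio of 1.03 (0.777 to 1.37). Without Diaph3, Myo9a and Afap1, the other 13 actin hosts had 193 counts in induction and 189 in control, a ratio of 0.937 (0.763 to 1.15). These 13 hold hosts of both directions. Ppp1r12a was 2-fold higher, with 64 counts in induction and 27 in control, while Myo1f (16 and 30), Actn1 (5 and 18) and Myo1c (3 and 12) were 2-fold lower. Of the hosts left out, Myo9a had more counts in induction, 71, than in control, 60 (ratio 1.09, 0.759 to 1.56). Without Cdh11, Magi3 and Ctnnbip1, the other 9 junction hosts had 86 counts in induction and 156 in control, 1.98-fold lower (1.51 to 2.60). Among these 9, Fat1 (6 counts in induction and 40 in control), Pcdh19 (15 and 36) and Ctnna1 (7 and 20) were 2-fold lower. Ctnnbl1, Magi2, Lmo7 and Pcdhac1 had more counts in induction. The cut at 100 counts keeps these low-count hosts, so it does not show a difference spread over the junction hosts. Summed by host, 2 of the 37 hosts were 2-fold higher and 10 were 2-fold lower, 32.4%, where 17.2% of all 1965 hosts were called, 7.79% higher and 9.41% lower. The median host total was 27 counts for the members and 28 for all hosts. Of the 13 member hosts with at least 50 counts, 2 were higher and 4 were lower, where 18.9% of all such hosts were called, 9.67% higher and 9.21% lower.

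**Figure D2:**
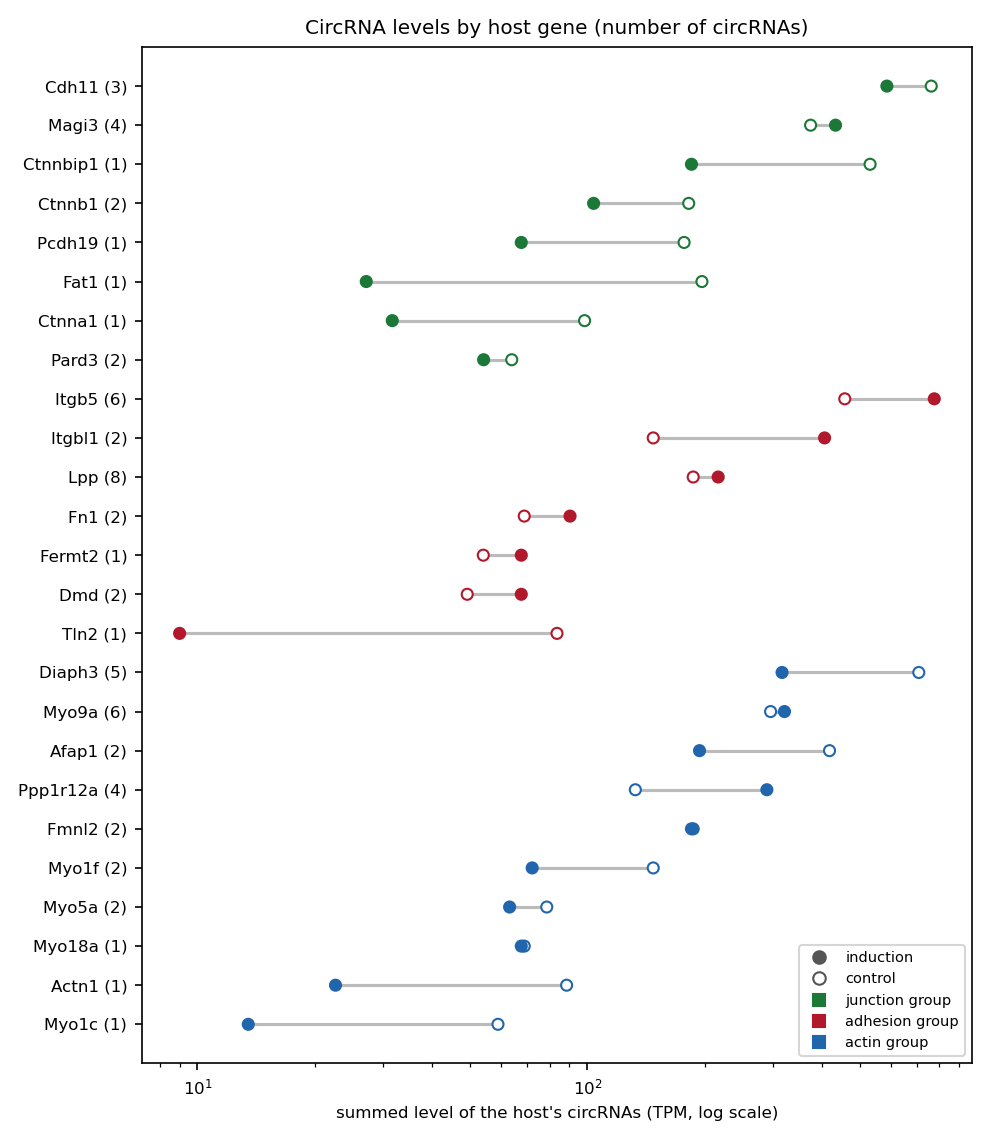
Summed level of the circRNAs of each of the 25 hosts with over 20 counts or a call, on a log axis (TPM, the count relative to the column total, not corrected for length), with induction as filled and control as open points and the number of circRNAs in brackets. Fat1, Ctnnbip1, Diaph3 and Tln2 had lower induction points, and Itgbl1, Itgb5 and Ppp1r12a higher ones.

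Among the cell-matrix adhesion hosts, the integrin subunit gene Itgb5 and the related Itgbl1 had the most counts, and the sums of both were higher in induction beyond counting error, that of Itgbl1 by more than 2-fold. Itgb5 encodes the β5 integrin, which pairs with the αv subunit to bind vitronectin. Its 6 circRNAs on chromosome 11 (Rnor_6.0) had 172 counts in induction and 93 in control, a ratio of 1.70 (1.31 to 2.21). The most abundant, from 70086253 to 70096544, had 111 counts in induction and 54 in control, a ratio of 1.89 (1.35 to 2.66) that lies beyond counting error but short of 2-fold. A circRNA of 430 nt with the same lower end, from 70086253 to 70086682, had 11 counts in induction and 2 in control and was the only Itgb5 circRNA called, 5.05-fold higher with a wide interval (1.10 to 46.8). The third with that end, from 70086253 to 70106439, had 6 counts in induction and 8 in control. At the other side of the gene, 3 circRNAs shared the upper end 70156430. They had 21, 5 and 18 counts in induction, against 20, 2 and 7 in control, and the third of these also carried names of small RNA families. The sums of both families of Itgb5, 128 in induction and 64 in control at the lower end and 44 and 29 at the upper end, had ratios that did not differ beyond counting error (1.83 and 1.39, ratio of ratios 1.32, 0.723 to 2.38).

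Itgbl1 encodes a secreted protein with repeats like those of the integrin β subunits, and it is not an integrin receptor. It was selected through its name. Its 2 circRNAs on chromosome 15 both start at 110234718. The longer one, ending at 110265737, had 36 counts in induction and 4 in control, 8.26-fold higher (2.96 to 31.9). The shorter one, ending at 110248309, had 54 counts in induction and 26 in control, a ratio of 1.91 (1.17 to 3.17). Their sum of 90 counts in induction and 30 in control was 2.75-fold higher (1.80 to 4.31). The longer form made up 40% of the Itgbl1 counts in induction (exact binomial interval 29.8 to 50.9) and 13.3% in control (3.76 to 30.7), so the ratios of the 2 forms differed by a factor of 4.29 (1.33 to 18.3).

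Lpp, which encodes a LIM domain protein of focal adhesions, had the most circRNAs of any member host, 8, with sums of 48 counts in induction and 38 in control and a ratio of 1.16 (0.741 to 1.82). The circRNA on chromosome 11 from 79309778 to 79361614, 51837 nt apart, had 13 counts in induction and 2 in control, 5.96-fold higher (1.35 to 54.4). The next one along the gene, from 79361488 to 79399831, had 2 counts in induction and 6 in control. These spans overlap by 127 nt, so that the same short stretch holds the upper end of the first and the lower end of the other. The remaining 6 each had between 4 and 9 counts in induction and between 3 and 6 in control, and none was called. Tln2, the gene of talin-2, which links integrin tails to actin, had 1 circRNA on chromosome 8 from 73047228 to 73052362. It had 2 counts in induction and 17 in control, 9.27-fold lower (2.20 to 82.7), and it also carried names of small RNA families. The other adhesion hosts, among them Fn1 (fibronectin), Fermt2 (kindlin-2), Itgb1 (the β1 integrin), Utrn (utrophin) and Dmd (dystrophin), were not called. Fn1 had 20 counts in induction and 14 in control over 2 circRNAs, and Fermt2 had 15 in induction and 11 in control. Itgb1, the common β subunit of many integrins, had 4 counts in each column.

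**Figure D3:**
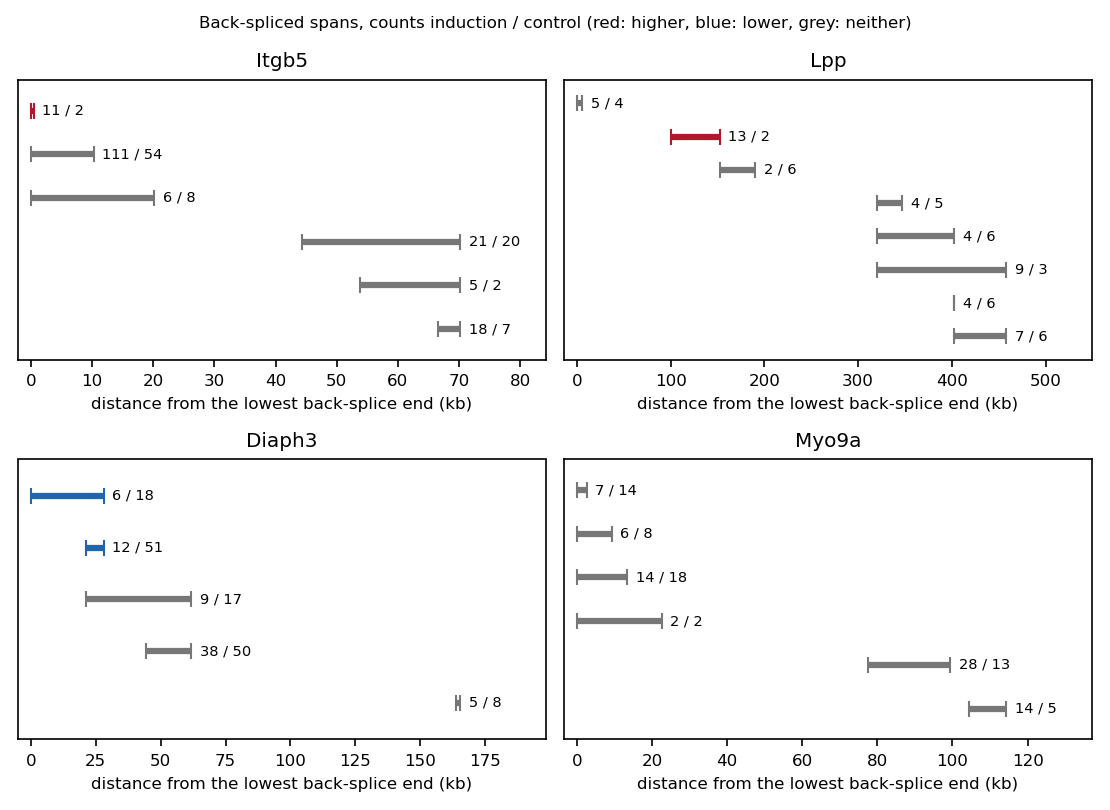
Spans of the circRNAs of Itgb5, Lpp, Diaph3 and Myo9a, as the distance in kb from the lowest back-splice end of each host, with counts in induction / control at the right of each bar. Red bars were 2-fold higher in induction, blue bars 2-fold lower and grey bars neither. In Diaph3 both blue bars share an upper end, and in Myo9a the 4 bars that share a lower end have no more counts in induction than in control.

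Among the junction hosts, circRNAs of Fat1, Ctnna1, Pcdh19 and Ctnnbip1 were 2-fold lower in induction and none was higher. Fat1, an atypical cadherin of very large size, had 1 circRNA on chromosome 16 from 50483768 to 50487053. It had 6 counts in induction and 40 in control, 7.27-fold lower (3.06 to 21.0). The circRNA of Ctnna1, the gene of α-catenin, on chromosome 18 from 28026848 to 28028197, had 7 counts in induction and 20 in control, 3.11-fold lower (1.27 to 8.72). Pcdh19, a protocadherin gene of the X chromosome, had 15 counts in induction and 36 in control in a circRNA from 104429943 to 104487794, 2.62-fold lower (1.40 to 5.14). Ctnnbip1 encodes an inhibitor that keeps β-catenin from TCF factors, and it belongs to this group through its name. Its circRNA on chromosome 5 from 166485517 to 166492515 had 41 counts in induction and 108 in control, 2.87-fold lower (1.99 to 4.22). This was the narrowest counting interval among the 15 calls. The circRNA was not among the calls left where each column was taken to vary by 40%.

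The cadherin and catenin hosts with more than 1 circRNA were not called. Cdh11, the gene of a mesenchymal cadherin known from osteoblasts, had the most counts of any member host over both columns together, 130 in induction and 155 in control, a ratio of 0.769 (0.605 to 0.978). Of its 3 circRNAs, one of 124 nt on chromosome 19 from 2459356 to 2459479 had 114 counts in induction and 139 in control (ratio 0.752, 0.582 to 0.971). Its other circRNAs share the lower end 2506536 and had 8 and 8 counts in induction, against 14 and 2 in control. Ctnnb1, the gene of β-catenin, had 20 counts in induction and 34 in control in its larger circRNA and 3 in each column in the other, with a summed ratio of 0.570 (0.324 to 0.985). Magi3, a scaffold of tight junctions, had 4 circRNAs with 96 counts in induction and 76 in control, a ratio of 1.16 (0.849 to 1.59). The shorter of the 2 that end at 206570833 on chromosome 2 had 53 counts in induction and 32 in control, and the longer had 17 and 22. Their ratios of 1.52 and 0.709 differed by a factor of 2.13, within counting error (0.926 to 4.99). The polarity gene Pard3 had 12 counts in induction and 13 in control over 2 circRNAs, and Magi2, Lmo7, Ctnnbl1 and Pcdhac1 had under 20 counts each. Like Ctnnbip1, Ctnnbl1 is not a catenin and belongs to this group through its name.

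**Figure D4:**
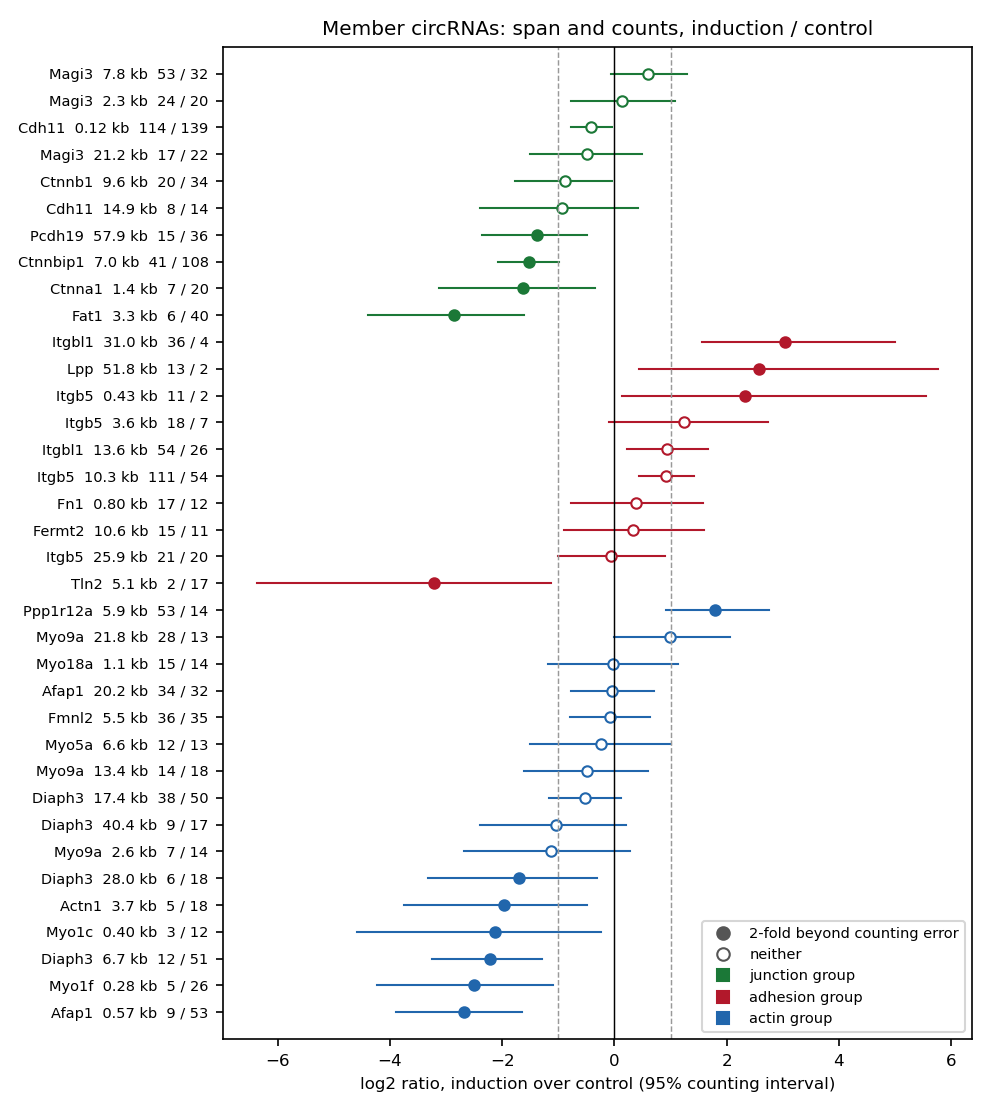
Log2 ratio of induction over control with its 95% counting interval for the 32 member circRNAs with at least 20 counts and the 4 called ones below that, 36 in all, each labelled with its host, span in kb and counts in induction / control. Filled points are 2-fold beyond counting error, and the dashed lines mark 2-fold. The filled junction points and all filled actin points except that of Ppp1r12a lie to the left, and the filled adhesion points except that of Tln2 lie to the right.

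Among the actin and myosin hosts, Diaph3 and Afap1 had the most counts among the hosts that were lower. Diaph3 encodes a formin that elongates unbranched actin filaments. All 5 of its circRNAs on chromosome 15 had fewer counts in induction, with 6, 12, 9, 38 and 5 counts in induction, against 18, 51, 17, 50 and 8 in control, ordered by their position. The sum of 70 counts in induction and 144 in control was 2.24-fold lower (1.67 to 3.03). The circRNAs from 70077466 to 70105489 and from 70098761 to 70105489, which share an upper end, were called, 3.27-fold lower (1.24 to 10.1) and 4.63-fold lower (2.44 to 9.55). The 2 that end at 70139170 together had 47 counts in induction and 67 in control, 1.55-fold lower, which is less low by a factor of 2.68 than those ending at 70105489 (1.36 to 5.42). The circRNA from 70098761 to 70105489 made up 17.1% of the Diaph3 counts in induction (exact binomial interval 9.18 to 28.0) and 35.4% in control (27.6 to 43.8).

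Afap1, an actin filament-associated protein that binds the kinase Src, had circRNAs of unlike behaviour. The one of 570 nt on chromosome 14 from 79987348 to 79987917 had 9 counts in induction and 53 in control, 6.42-fold lower (3.14 to 14.8). The other, from 79953865 to 79974054, had 34 counts in induction and 32 in control, a ratio of 0.975 (0.584 to 1.63). The ratio of the short form was 6.16 times lower than that of the other (2.50 to 16.6). In contrast, Ppp1r12a, the gene of the targeting subunit of myosin phosphatase, had the only higher call of the group. Its circRNA on chromosome 7 from 51410270 to 51416139 had 53 counts in induction and 14 in control, 3.47-fold higher (1.90 to 6.78). The other 3 circRNAs of Ppp1r12a share the upper end 51479896 and had 11 counts in induction and 13 in control together.

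Among the myosin genes, Myo9a had the most circRNAs. Myo9a and Myo9b encode class IX myosins. Of the 6 circRNAs of Myo9a on chromosome 8, the 4 that start at 64635064 had 29 counts in induction and 42 in control together, 1.58-fold lower (ratio 0.633, 0.381 to 1.04). The other 2, further along, had 42 counts in induction and 18 in control, a ratio of 2.14 (1.21 to 3.95). These ratios differed by a factor of 3.35 (1.54 to 7.49), a split chosen after its values were seen, and no single Myo9a circRNA was called. The 3 circRNAs of Myo9b had 6 counts in induction and 8 in control. Myo1f, a class I myosin known from leukocytes of mouse and human, had 2 short circRNAs on chromosome 7 with unlike ratios. The one from 18469353 to 18469632 had 5 counts in induction and 26 in control, 5.67-fold lower (2.14 to 18.9). The one from 18461372 to 18461635 had 11 and 4. Their ratios differed by an estimated factor of 13.2 (2.66 to 83.8). Its sum of 16 counts in induction and 30 in control was 2.04-fold lower (1.08 to 4.01). The leukocyte marker Dock8 had 19 counts in induction and 29 in control, and the part of leukocytes in the Myo1f counts was not tested.

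Single circRNAs of Myo1c and Actn1 were also lower. Myo1c, a class I myosin, had 3 counts in induction and 12 in control on chromosome 10 from 63812224 to 63812622, 4.36-fold lower (1.18 to 24.1). Actn1, the gene of the actin crosslinker α-actinin-1, had 5 counts in induction and 18 in control on chromosome 6 from 103389817 to 103393554, 3.92-fold lower (1.40 to 13.5). Fmnl2, a formin of protrusions, had a circRNA of middle abundance that did not differ beyond counting error, with 36 counts in induction and 35 in control (ratio 0.944, 0.576 to 1.55). The circRNAs of Myo1d, Myo5a, Myo10, Myo18a, Fhod1 and Fhod3 had 15 or fewer counts in each column and were not called.

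Spans and shared ends were not used in the selection. The distance between the back-splice ends had a median of 9760 nt in the members and 5603 nt in the other 4065, with a range of 106 to 137935 nt in the members. Spans under 1 kb made up 14.1% of the members and 18.4% of the others, and spans of 50 kb or more 8.97% and 6.74%. Of the 78, 37 (47.4%) shared a back-splice end with another listed circRNA, against 44.4% of all 4143. Of the 18 hosts with several circRNAs, 7 had at least 1 circRNA whose ratio differed from the rest of its host beyond counting error, 11 of the 59 circRNAs so compared, and both circRNAs of a host with 2 count there. This was 18.6% of the members so compared, where 21.2% of the circRNAs of all such hosts differed, and 38.9% of the member hosts, where 30.4% of all such hosts had at least 1 of them. These hosts were Afap1, Diaph3, Itgbl1, Lpp, Myo1f, Myo9a and Ppp1r12a.

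The promoters of Diaph3 and Itgbl1 are shown because they are hosts with several circRNAs that all lay on the same side of equal levels and with a called sum, lower for Diaph3 and higher for Itgbl1. Afap1 met the same condition and is not shown. They are RefSeq sequences of 300 bases around the annotated start on assembly GRCr8, which is not the build of the circRNA coordinates, at chr15:69421503-69421802 on the minus strand for Diaph3 and at chr15:107186542-107186841 on the plus strand for Itgbl1. The capitals mark the motif GGAATG of TEAD factors, here on the reverse strand from position −134.
Diaph3: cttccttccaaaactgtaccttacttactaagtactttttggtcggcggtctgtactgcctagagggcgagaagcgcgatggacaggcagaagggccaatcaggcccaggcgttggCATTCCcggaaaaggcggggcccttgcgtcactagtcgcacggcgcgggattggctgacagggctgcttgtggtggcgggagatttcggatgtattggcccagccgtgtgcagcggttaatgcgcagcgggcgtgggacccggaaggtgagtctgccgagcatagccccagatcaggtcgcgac
Itgbl1: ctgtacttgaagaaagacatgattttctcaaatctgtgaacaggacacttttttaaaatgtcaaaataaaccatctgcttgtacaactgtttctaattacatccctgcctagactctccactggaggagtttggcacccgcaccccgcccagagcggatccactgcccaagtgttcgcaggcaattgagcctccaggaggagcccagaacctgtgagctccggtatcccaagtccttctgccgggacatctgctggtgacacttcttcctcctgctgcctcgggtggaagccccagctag
Motifs of factors known from adhesion, actin or glucocorticoid control were searched on both strands in the promoters of the 28 member hosts with a sequence and of all 33469 genes. GGAATG (TEAD) occurred in 4 of the 28 (14.3%) and in 14.2% of all promoters, TGANTCA (AP-1) in 3 (10.7%) and in 7.33%, AGAACA (the core of a glucocorticoid receptor element) in 1 (3.57%) and in 20.7%, and the SRF CArG box in 1 (3.57%) and in 1.64%. A match is a description of these letters, and circRNA counts do not measure promoter activity.

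Other hosts of the same processes, from a list that leaves out the members, did not share a direction. Of 120 such genes, 43 had 74 circRNAs, of which 3 were higher, 8 were lower and 63 were neither, with a median log2 ratio of −0.12. Over all circRNAs 9.22% were higher and 9.29% lower by this rule. Their sums were 1244 counts in induction and 1126 in control, a ratio of 1.01 (0.934 to 1.10). In actin nucleation, binding and crosslinking 1 of 33 was higher and 5 were lower, with a summed ratio of 0.817 (0.707 to 0.943). In the other cell-cell junction genes 1 of 9 was higher. Their sum of 136 counts in induction and 82 in control had a ratio of 1.52 (1.15 to 2.03), opposite to the junction members. Of these counts, a single circRNA of Plekha7 held 64 in induction and 34 in control, and the sum without it was not computed. In focal adhesion and integrin signalling 1 of 15 was lower. Its sum of 151 counts in induction and 153 in control (ratio 0.905, 0.718 to 1.14) was not higher, unlike that of the adhesion members. The higher ones were Cdc42bpa, a Cdc42 effector kinase (55 counts in induction and 10 in control), the receptor phosphatase Ptprk (20 and 7) and the actin-microtubule linker Macf1 (15 and 4). Those with most counts among the lower ones were the guanine nucleotide exchange factor Arhgef12 (5 counts in induction and 40 in control), the actin nucleator Cobl (10 and 31) and the spectrin gene Sptan1 (7 and 20).

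The names just outside the selection were Itgav, Parva, Myof and Myocd, which begin like the members but end otherwise. Itgav, the αv integrin that pairs with β5, had 2 counts in induction and 3 in control. Parva, the gene of the focal adhesion protein α-parvin, had 3 circRNAs with 14, 3 and 19 counts in induction, against 9, 4 and 18 in control. Myocd, the coactivator of SRF, had 46 counts in induction and 13 in control, 3.25-fold higher (1.72 to 6.55).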

How the data were processed

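Back-splice reads were measured in dental follicle cells of 3 induction and 3 control samples. Linear RNA and DNA were digested before sequencing, per the labels' protocols. Per the submitters' processing notes, FastQC, BWA and Rnor_6.0 were used. The caller of circRNAs and its filters are not stated there. Per the file headers, the authors deposited 1 count column per group, and how 3 libraries became 1 column is not given. No deposited count was below 1, so circRNAs detected in a single group are not analysed here. The deposited TPM is proportional to the count divided by a total of 221596 for induction and 203283 for control, without length correction. The authors' deposited log2 ratio is that of the TPM values, and the deposited p-value and FDR compare 2 counts and hold no spread between rats.

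Ratios (induction over control) used these totals, with Clopper-Pearson bounds at 95% on the split of the counts (Python 3.11.15, scipy 1.17.1). Ratios of 2 ratios are conditional maximum likelihood estimates with exact conditional intervals. At low counts they differ somewhat from the quotient of the 2 ratios. PCR reads without molecular identifiers are not independent molecules, so all intervals cover counting error only. The planned edgeR test across samples needs 1 column per sample and could not be made. The call rule was tried on simulated Poisson counts, the model that the intervals assume. These held no spread between rats, so they cannot show how the rule behaves with such spread. Hosts over all circRNAs were assigned after dropping 60 names found on several chromosomes or spread beyond 5 Mb, where 1 name was left. Member circRNAs were instead assigned to their member name, also where they carried other names. With only the circRNAs that carry the member name alone, 11 of 36 member host sums were called, 2 higher and 9 lower. Of the 37 member hosts, 36 symbols matched RefSeq (GRCr8), all on the same chromosome. No genome of Rnor_6.0 was used, so exons were not assigned and circRNA sequences are not shown.

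Named are all called members, the 10 with most counts, hosts with at least 3 circRNAs or 100 counts, and up to 3 called circRNAs per direction of the list of other hosts; further members named, and the splits of circRNAs within a host, were chosen after their values were seen. The members, groups and lists were chosen with earlier results of these data known. Some members and groups of other hosts are not reported here by name. Alternatives were other scalings (edgeR 4.0.16, DESeq2 1.42.0), thresholds, filters and memberships.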

Additional observations from a re-analysis of the deposited data

How the results depend on the processing

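No paired analysis was possible because the counts come as a single column for induction and a single one for control. A replicate block, DESeq2 as a test and leaving out samples were therefore not run. Scaling to listed totals, TMM, DESeq2 size factors and listed totals without collagens moved each log2 ratio by −0.13, −0.01, 0.05 and −0.08. Under these 4 scalings 15 or 16 members were called in place of 15, 11 or 12 host sums in place of 12, and the 3 group sums kept their direction and excluded equal levels. Of 152 values of 38 named circRNAs and host sums under them, 150 kept their side of 2-fold. The exceptions among these 38 were the sum of Myo1f with DESeq2 size factors (log2 −0.98) and that of Ppp1r12a with listed totals (log2 0.99). Outside the 38, the Myo9a circRNA with most counts was called higher with DESeq2 size factors. The larger Ctnnb1 circRNA was called lower with listed totals. With DESeq2 size factors the Cdh11 sum and its circRNA with most counts no longer excluded equal levels. A 4-fold threshold left 9 members called (3 higher, 6 lower) and an assumed coefficient of variation of 40% left 6, both stricter by construction. The shares of all circRNAs called under both are not given here. Without the most abundant circRNA of each host 3 of 18 sums were called, and among hosts with at least 50 counts 6 of 13, both with fewer hosts tested. Without hosts of at least 100 counts the log2 ratio was 0.044 for the adhesion group and −0.094 for the actin group, in place of 0.63 and −0.47, and neither then excluded equal levels. Without Diaph3 alone the actin group was at −0.25, and without Itgb5 alone the adhesion group was at 0.52. Ctnnbip1, Ctnnbl1 and Itgbl1 were included through their names only. Without them the junction group was at −0.47 in place of −0.61 and the adhesion group at 0.44 in place of 0.63. Both still excluded equal levels. The member share was 0.497% in induction and 0.587% in control of the totals behind the TPM, and 1.03% and 1.29% of listed counts without collagens. The alternatives without single hosts, without hosts of at least 100 counts and with at least 50 counts were chosen after seeing the data. So were the group sums without Ctnnbip1, Ctnnbl1 and Itgbl1. Low counts limit most members: of the 63 not called, 14 had ratios of 2 or more either way.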
